A study of Mus musculus with 57 samples.

Results

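The genes described here are 35 autosomal genes known to mark microglia or the microglia that gather at amyloid plaques, of 24963 autosomal genes of the curated RefSeq set on mm10. They were chosen by name as known markers, with earlier results of these data known, and they were put into 6 roles: 6 surface receptors of resting microglia, 12 genes of the TREM2 pathway and other immune receptors, 3 integrin and cytoskeleton genes, 3 transcription factors, 3 complement subunits, and 8 lysosomal, lipid and secreted proteins. Chromatin immunoprecipitation followed by sequencing was performed for H3K4me3, H3K27ac and H3K27me3 in 9 brain cortexes and 10 gastrocnemius muscles of PSAPP mice, which carry a mutant chimeric mouse and human amyloid precursor protein and a mutant human presenilin 1. All mice were 13 months old, were housed singly from 6 months of age on a modified AIN-93 diet, and carried the transgenes, so no group shows what the transgenes do. The 9 mice with cortex libraries also gave muscle. The question put to the data was therefore which marks these genes carried in amyloid-bearing cortex, with the muscle of the same animals beside it.

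Microglia are the resident macrophages of the brain. Near amyloid plaques they lower genes of the resting state, such as P2ry12 and Tmem119, and raise genes of lipid handling, lysosomes and phagocytosis, a switch that needs the lipid receptor TREM2 and its adaptor TYROBP. H3K4me3 and H3K27ac sit at active promoters, H3K27ac also at enhancers, while H3K27me3 is laid down by Polycomb complexes at silenced genes. Microglia are a small share of cortical cells, so in whole tissue their active marks stand beside the marks that all other cells carry at the same genes. In such bulk samples, fewer cells of a type and less mark per cell cannot be told apart.

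The 250 bases before the start of 4 members are shown because they had the highest H3K27ac level in cortex among members whose promoter window holds a searched motif. They are RefSeq sequences on GRCm38.p6, the assembly named mm10, written 5′ to 3′ along the gene, with capitals marking the motif letters. The 4 windows lie at chr11:69666171-69666420 on the minus strand for Cd68, chr8:120736108-120736357 on the plus strand for Irf8, chr1:87620062-87620311 on the plus strand for Inpp5d and chr3:59262986-59263235 on the minus strand for P2ry12.
Cd68: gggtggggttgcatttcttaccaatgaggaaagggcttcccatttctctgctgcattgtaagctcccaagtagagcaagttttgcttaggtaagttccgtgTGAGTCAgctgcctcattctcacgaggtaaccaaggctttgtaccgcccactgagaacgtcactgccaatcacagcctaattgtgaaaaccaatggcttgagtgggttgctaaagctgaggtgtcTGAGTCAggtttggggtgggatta
Irf8: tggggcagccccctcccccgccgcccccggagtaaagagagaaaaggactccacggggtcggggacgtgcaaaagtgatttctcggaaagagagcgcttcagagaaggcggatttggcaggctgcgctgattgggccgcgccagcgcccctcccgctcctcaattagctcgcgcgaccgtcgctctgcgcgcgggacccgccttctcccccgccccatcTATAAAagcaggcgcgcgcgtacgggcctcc
Inpp5d: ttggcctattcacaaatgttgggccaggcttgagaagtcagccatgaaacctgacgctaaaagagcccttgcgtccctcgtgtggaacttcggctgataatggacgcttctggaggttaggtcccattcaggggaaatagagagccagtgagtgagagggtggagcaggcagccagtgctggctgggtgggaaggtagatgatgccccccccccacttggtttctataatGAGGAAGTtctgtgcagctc
P2ry12: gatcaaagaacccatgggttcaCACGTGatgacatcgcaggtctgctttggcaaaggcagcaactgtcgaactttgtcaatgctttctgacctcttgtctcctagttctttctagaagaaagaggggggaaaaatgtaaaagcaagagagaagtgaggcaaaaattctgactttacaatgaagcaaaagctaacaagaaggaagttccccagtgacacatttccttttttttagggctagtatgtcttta
The capitals in Cd68, which encodes a lysosomal membrane protein of macrophages, are both AP-1 motifs, read on the opposite strand. Those in Irf8 are a TATA motif 31 to 26 bases before the start, those in Inpp5d a PU.1 motif 20 to 13 bases before it, and those in P2ry12 an E-box 228 to 223 bases before it. Cd68 held TTTCATTTCC, the opposite strand of the composite PU.1 and IRF motif, 23 to 32 bases after its start.

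The motif search covered 300 bases (250 before to 50 after the start) on both strands for the 27 members found in the RefSeq promoter table. C1qa, Cd74, Csf1r, Lpl, Selplg, Spi1, Tmem119 and Tyrobp had no entry. GAGGAAGT (PU.1) was in 3 members, C1qc, Ctss and Inpp5d, or 11.1% of the 27 against 3.32% of 18231 promoters. The composite motif of a PU.1 site and an IRF half-site was in Cd68 and Clec7a, 7.41% against 2.65%. TGACTCA (AP-1) was in Cd68 and Itgax against 4.84% of all promoters, CACGTG (E-box) in P2ry12 and Siglech against 7.99%, and TATAAA in 5 members (Ctss, Fcrls, Irf8, Laptm5 and Ptprc) or 18.5% against 13.1%. A match is a description of the letters and not of a bound site. The members' promoters were poor in CpG: the median observed-over-expected CpG was 0.302, from 0.0658 in Aif1 to 1.03 in Irf8, against 0.565 over all promoters. It was under 0.4 in 21 of the 27 members and in 39.9% of all promoters. Sall1 (0.731), Ly86 (0.691) and Cd9 (0.689) followed Irf8 at the CpG-rich end.

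For each library the authors deposited called peaks with the reads in each. A member had a promoter call in a library when a peak lay within 1 kb of its transcription start site (TSS). Its level was the reads of peaks in those 2 kb per M reads in autosomal peaks (RPM), and 0 where no peak was called. A 0 therefore says only that no peak was called. The lowest read density of any called peak, set over the whole window, had medians of 2.62 and 2.75 RPM for H3K4me3 in cortex and gastrocnemius, 2.07 and 1.96 for H3K27ac, and 3.95 and 4.44 for H3K27me3. A called peak that covers part of the window can give less: 40 of 355 called levels of the members in H3K4me3, 31 of 363 in H3K27ac and 28 of 383 in H3K27me3 lay below that value. Reads in peaks ranged from 9.50 to 18.99 M for H3K4me3 in cortex and from 9.16 to 14.98 M in gastrocnemius. The ranges were 3.94 to 21.2 M and 15.7 to 27.3 M for H3K27ac, and 4.52 to 7.32 M and 2.99 to 18.2 M for H3K27me3. H3K27ac cortex library 9 (3.94 M) and H3K27me3 gastrocnemius library 5 (18.2 M) stood apart in depth. Neuron markers were higher in cortex for 10 of 10 genes in both active marks, and skeletal muscle markers lower for 8 of 10 genes in H3K4me3 and 10 of 10 in H3K27ac, as the tissue labels say. A marker called in 1 tissue alone had to come out higher there. In muscle Rbfox3, Snap25, Camk2a, Gad1 and Nefl had no H3K4me3 call, and Rbfox3, Snap25, Syt1, Gad1 and Nefl no H3K27ac call.

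In cortex 28 of the 35 members had an H3K4me3 promoter call in at least 50% of libraries, 29 an H3K27ac call and 22 an H3K27me3 call (80%, 82.9% and 62.9%, against 60.4%, 65.7% and 22.2% of all genes). In gastrocnemius the numbers were 10, 11 and 22 (28.6%, 31.4% and 62.9%, against 59.6%, 62.3% and 24.6%). Every cortex library was called for 21 members (60%) in H3K4me3, where 58.1% of all genes were, and for 20 (57.1%) in H3K27ac, where 58.8% were. Every gastrocnemius library was called for 8 members (22.9%) in each of these marks, where 56.5% and 57.0% of all genes were. For H3K27me3 the members stood above all genes in both tissues, with 15 (42.9%) called in every cortex library against 13.8% of genes and 10 (28.6%) in every gastrocnemius library against 12.9%. Each member had a peak of at least 1 mark in at least 1 cortex library. Over all genes, 37.2% had no promoter call in any cortex library in H3K4me3, 29.4% in H3K27ac and 66.7% in H3K27me3. The share of genes with a peak of any mark was not counted. In single libraries 23 to 31 members were called in H3K4me3 in cortex and 9 to 16 in gastrocnemius, where 59.4% to 61.6% and 58.7% to 60.5% of all genes were. The numbers were 21 to 30 and 10 to 13 in H3K27ac (60.1% to 67.0% and 60.9% to 63.8% of all genes), and 20 to 23 and 14 to 24 in H3K27me3 (21.1% to 23.98% and 20.7% to 30.7%).

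**Figure D1:**
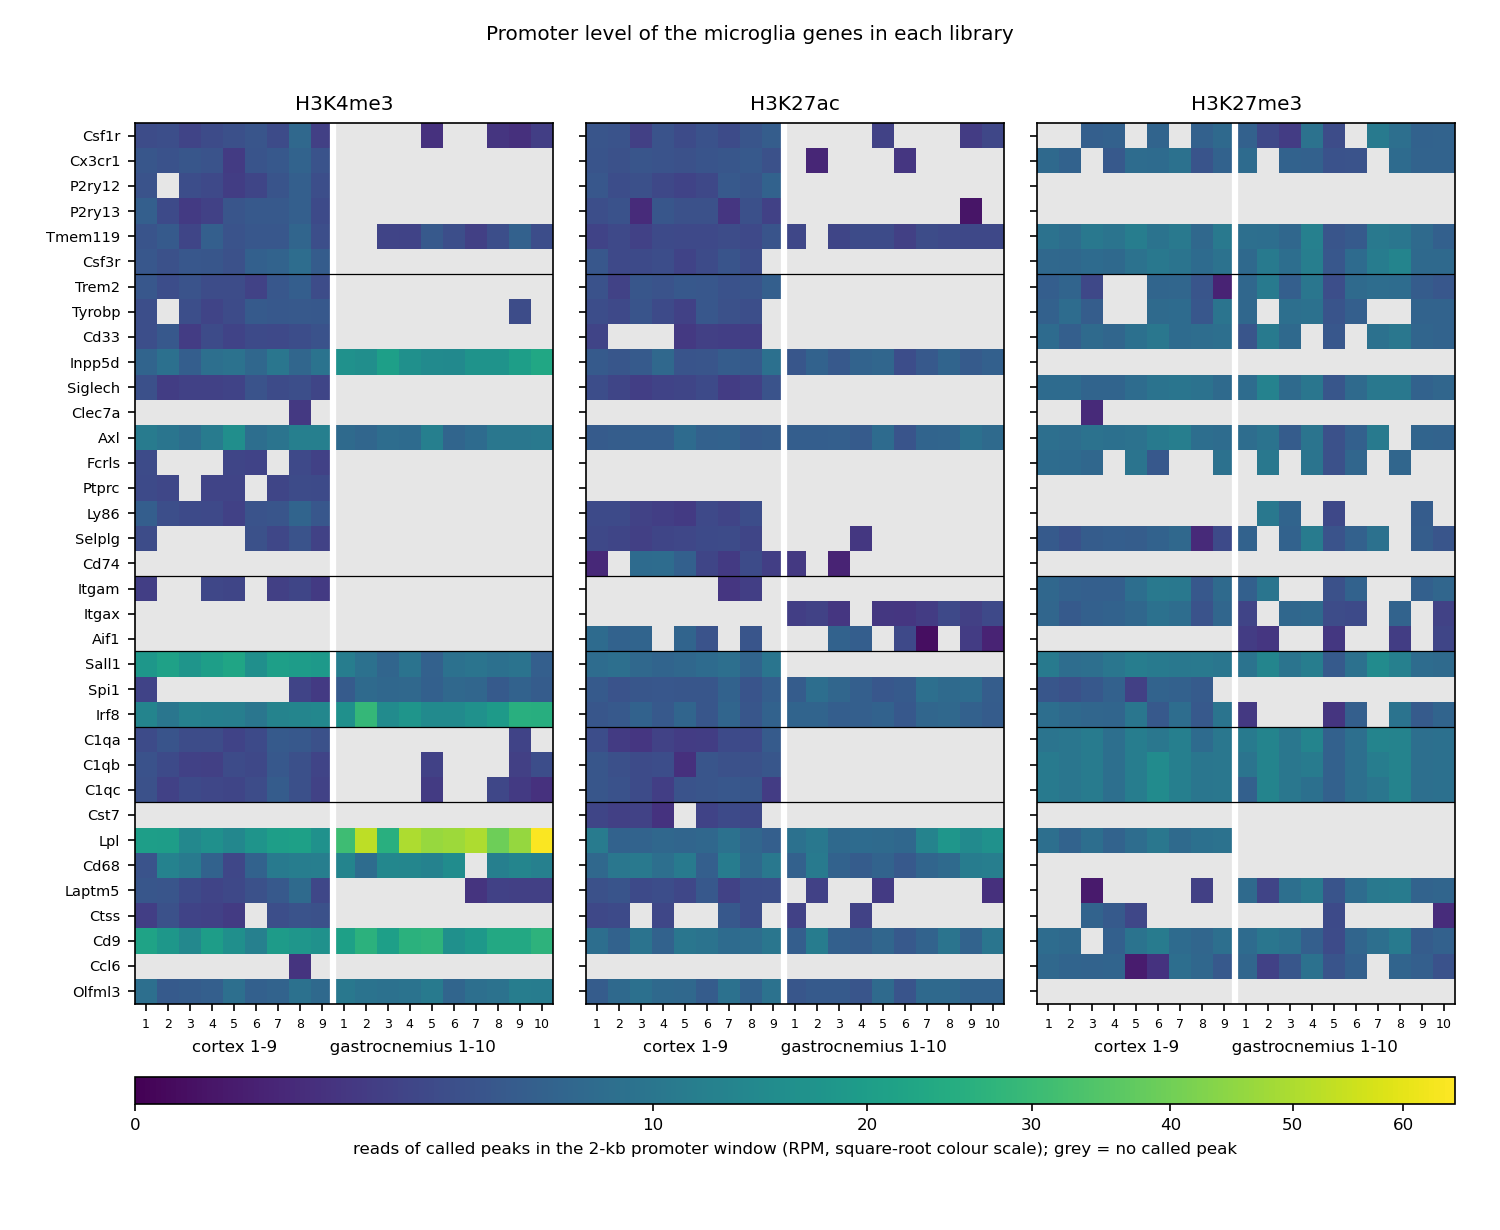
Promoter level (RPM, reads of called peaks within 1 kb of the TSS per M reads in autosomal peaks) of the 35 members (rows, by role) in each of the 57 libraries (columns, by mark and tissue), with uncalled libraries at 0. Most receptor, TREM2 pathway and complement genes have calls of both active marks in the cortex columns and few in the gastrocnemius columns, while Lpl, Irf8, Inpp5d, Axl, Cd9 and Olfml3 are marked in both tissues.

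The members called in cortex had low levels of the active marks there. Over members called in every cortex library the median H3K4me3 level was 4.43 RPM, against 39.7 over all such genes, and the median H3K27ac level was 4.39 against 9.87. In H3K4me3 Trem2 stood at percentile 1.07 of genes called in every cortex library, C1qb at percentile 0.462 and Cx3cr1 at percentile 1.62. Sall1 had the highest H3K4me3 percentile of the members (18.9) and Cd68 the highest H3K27ac percentile (42.3). For H3K27me3 the medians were nearly alike, 8.27 RPM against 8.76 in cortex, and C1qb stood at percentile 79.6.

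Promoter calls were compared between tissues by Fisher's exact test (two-sided, over all genes with a call, FDR < 0.1). In H3K4me3, 14 members had a call in more libraries of cortex and 1 (Spi1) in fewer, where 5.01% and 3.41% of the 16699 genes with a call did. In H3K27ac, 18 were called more often in cortex and 1 (Itgax) less often, against 9.27% and 4.29% of 18564 genes. In H3K27me3, Lpl and Spi1 were called more often and Laptm5 less often, against 10.2% and 13.4% of 10897 genes. The members with a call numbered 31, 31 and 27. The 14 fell to 3 without the 25% of peaks with the lowest scores, where of the 14 only C1qa kept its call and Cx3cr1, P2ry12, P2ry13, Csf3r, Trem2, Tyrobp, Cd33, Siglech, Ptprc, Ly86, Itgam, C1qb and Ctss lost theirs. It was 8 where a peak had to cover 50% of the window, with C1qa, C1qb, Ctss, Itgam, Ptprc, Siglech and Tyrobp lost. With equally many top peaks in every library, the H3K4me3 calls of P2ry12, Tyrobp, Ptprc, Itgam and Ctss were lost. In H3K27ac the calls of Cd33 and Cst7 were lost without the lowest-scoring peaks, those of Cd33, Csf3r, Cst7 and Tyrobp with equally many top peaks in every library, and those of C1qa and Cd74 with 50% covered. The H3K4me3 calls of Spi1 (3 of 9 against 10 of 10) and Itgam (6 of 9 against 0 of 10), both at an adjusted p of 0.0377, were lost when any 1 gastrocnemius library was left out, and that of C1qb (9 of 9 against 3 of 10, 0.0377) without any of 7. The H3K27ac call of Cd33 (5 of 9 against 0 of 10, 0.0799) was lost without any 1 of 5 cortex or 10 gastrocnemius libraries. H3K4me3 was called in every cortex library and no gastrocnemius library for 7 members, Cx3cr1, P2ry13, Csf3r, Trem2, Cd33, Siglech and Ly86, at cortex means of 3.07 to 5.44 RPM. The 7 members with that pattern in H3K27ac were P2ry12, Trem2, Siglech, Sall1, C1qa, C1qb and C1qc, at 2.86 to 7.92 RPM. Trem2 and Siglech are in both groups. The share of all genes with this pattern was not counted. Each such gene passes Fisher's exact test, so the share is at most the 5.01% (H3K4me3) and 9.27% (H3K27ac) above.

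**Figure D2:**
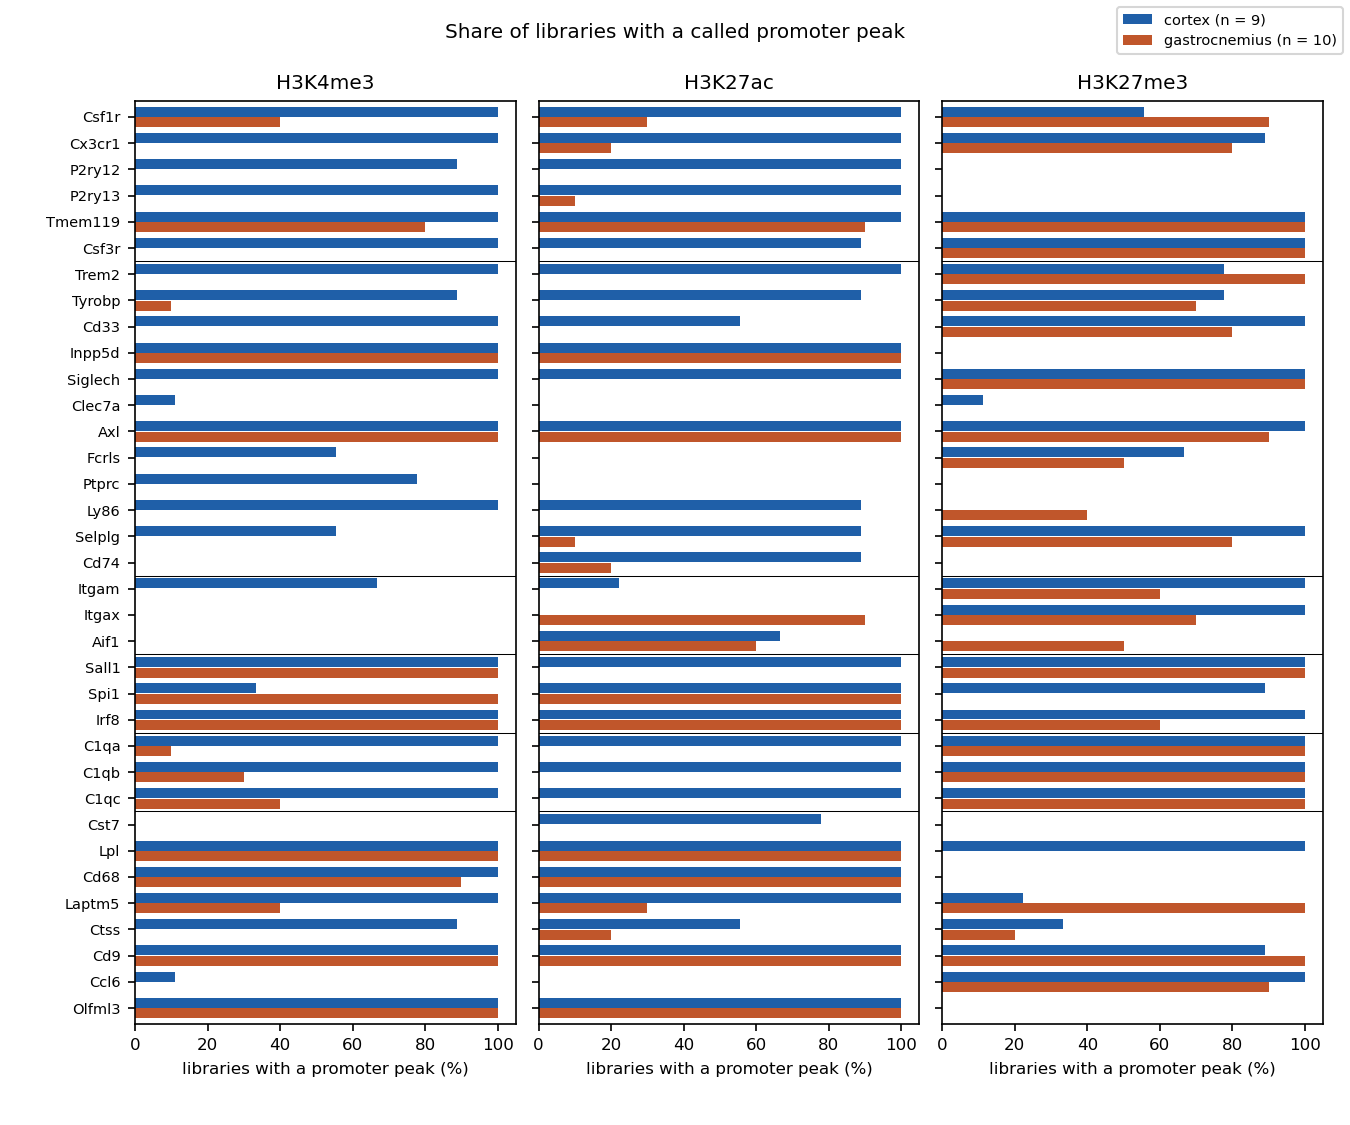
Percent of libraries with a promoter peak for each member (rows, by role), with 1 panel per mark, 9 cortex libraries and 10 gastrocnemius libraries. Cortex bars exceed gastrocnemius bars for most members in H3K4me3 and H3K27ac, Spi1 (H3K4me3) and Itgax (H3K27ac) go the other way, and the H3K27me3 bars are often long in both tissues.

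Promoter reads were tested with edgeR where a gene had a peak in at least 3 libraries of a tissue (FDR < 0.1 over all genes tested). Of 29 members tested in H3K4me3, 18 were higher in cortex, 6 lower and 5 not called, against 32.1% higher and 27.2% lower of 16190 genes. Of 30 tested in H3K27ac, 18 were higher, 6 lower and 6 not called, against 31.6% and 24.7% of 17855 genes. Of 26 tested in H3K27me3, 3 were higher, 3 lower and 20 not called, against 22.1% and 27.3% of 8795 genes. A member that passed the filter through cortex calls alone had to differ, and 15 of the 18 in H3K4me3, 16 of the 18 in H3K27ac and 2 of the 3 in H3K27me3 did so. Of those lower, 1 of 6 in H3K27ac (Itgax) and 3 of 3 in H3K27me3 (Aif1, Ly86 and Laptm5) passed through gastrocnemius alone. These counts are therefore no support. The 18 in H3K4me3 became 11 without the lowest-scoring peaks. The direction also depended on the scaling. Without a normalization factor the median of all genes moved by 0.29 (H3K4me3), 0.27 (H3K27ac) and 0.03 (H3K27me3) on the log2 scale, and the share of higher calls among all calls went from 54.2% to 78.7%, from 56.1% to 79.4% and from 44.8% to 43.5%. In a second fit uncalled libraries were filled with their lowest called read density over the whole window. The filling raises the uncalled libraries, so a member's filled difference is given as a description, with no error or test, and counts from this fit only show how far the counts above move with it. The shift between scalings is larger than several filled differences. A filled difference near 0, or on the side of the tissue with fewer calls, rests on the filling and the scaling together and gives no direction. With the filling 8 members were higher in H3K4me3, and the median difference over the tested members was 0.03, 0.25 and 0.12, against 0.04, -0.00029 and -0.0092 over all genes tested. The fitted medians without the filling, 3.23, 3.50 and 0.09, rest on genes at 0 in 1 tissue and are not fold changes.

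**Figure D3:**
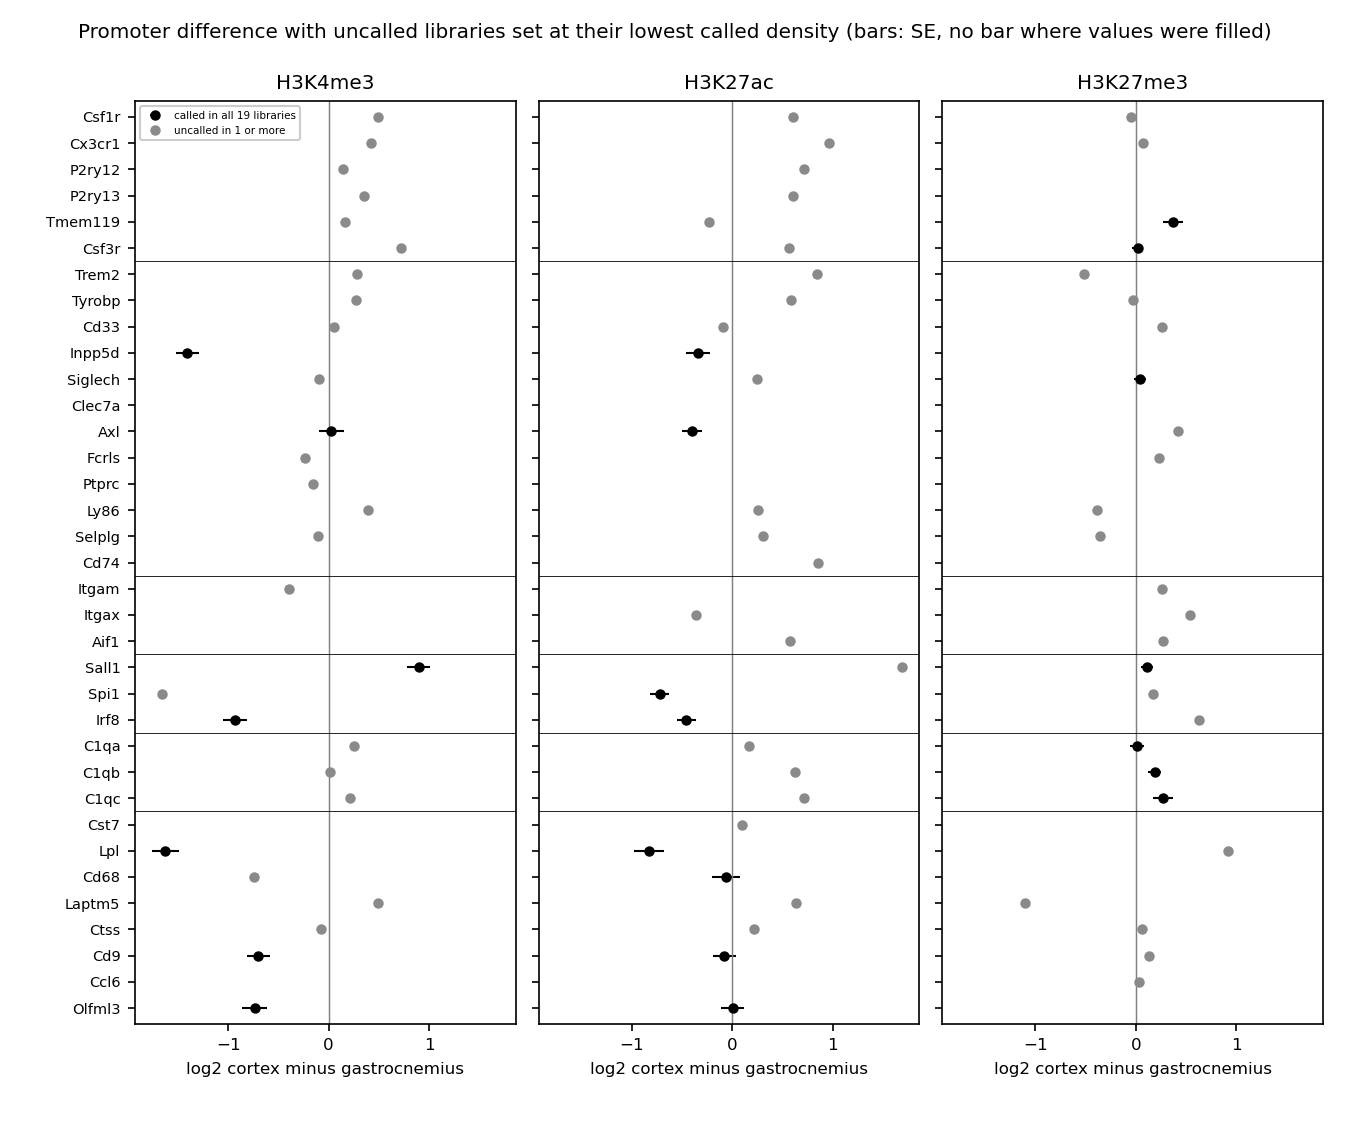
Difference in promoter level between cortex and gastrocnemius (log2, horizontal axis) for each tested member and mark, with uncalled libraries set to the lowest read density of any called peak of that library, and bars of 1 SE where all 19 libraries were called. Grey points rest in part or wholly on filled values. Those near 0, or on the side of the tissue with fewer calls, rest on this filling and on the scaling and give no direction. Sall1 in H3K27ac lies farthest to the right at 1.69, Spi1 and Lpl in H3K4me3 farthest to the left at -1.66 and -1.63.

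The receptors of resting microglia were marked for activity in cortex and mostly not in muscle. Csf3r, the G-CSF receptor, had the highest H3K4me3 level of the 6, with lowest, median and highest cortex values of 3.98, 4.84 and 8.38 RPM and a mean of 5.44 ± 1.41 RPM (SD, n = 9), and 0 in 10 of 10 gastrocnemius libraries. The filled log2 difference was 0.72, and the calls passed Fisher's exact test (adjusted p = 2.28e-04), though not without the lowest-scoring peaks. Cx3cr1, the fractalkine receptor, led in H3K27ac at 3.94, 4.34 and 5.1 RPM in cortex, where the libraries lay close together (4.35 ± 0.374 RPM), while 2 of 10 gastrocnemius libraries were called, the highest at 1.59 RPM. The groups did not overlap, and the calls passed Fisher's exact test (adjusted p = 0.00727, filled log2 difference 0.96). P2ry12, an ADP receptor of resting microglia, had H3K27ac in 9 of 9 cortex libraries at 2.67, 3.83 and 6.48 RPM and in 0 of 10 muscles (Fisher's exact adjusted p = 1.87e-04, filled log2 difference 0.71). Its neighbour P2ry13 had H3K4me3 in 9 cortex and 0 gastrocnemius libraries (4.18 ± 1.51 RPM in cortex). Both genes lie inside Med12l and had no H3K27me3 call in any library.

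Csf1r, the receptor on which microglia depend for survival, was called in 9 of 9 cortex libraries in both active marks (3.88 ± 1.45 RPM of H3K4me3 and 4.05 ± 0.942 RPM of H3K27ac), and in 4 and 3 of 10 gastrocnemius libraries. The calls passed Fisher's exact test in H3K27ac (adjusted p = 0.0265) and not in H3K4me3 (0.114). The edgeR adjusted p in H3K27ac was 0.0973, and it went past 0.1 when any of 16 of the 19 libraries was left out. Tmem119, a microglial membrane protein, had both active marks in most libraries of both tissues. Its H3K27ac level was 3.19 ± 0.553 RPM in cortex and 2.77 ± 1.04 RPM in gastrocnemius (9 of 10 called), and neither active mark passed the test (edgeR adjusted p = 0.62 for H3K4me3 and 0.857 for H3K27ac). Over the whole gene Tmem119 was higher in cortex, at 2.06 ± 0.583 RPM per kb against 0.744 ± 0.547 RPM per kb in H3K4me3 (log2 difference 1.43 (SE 0.55, edgeR adjusted p = 0.0278)) and 1.76 ± 0.475 RPM per kb against 0.709 ± 0.527 RPM per kb in H3K27ac (1.28 (SE 0.49, edgeR adjusted p = 0.0266)).

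Trem2 (chr17:48346401-48352276, plus strand) senses lipids and lipoproteins and starts the phagocytic response of microglia. Its H3K4me3 level in cortex had a lowest, median and highest value of 2.5, 3.61 and 5.78 RPM, and its H3K27ac level 2.53, 4.35 and 6.03 RPM. No gastrocnemius library was called for either mark, and the lowest H3K4me3 value in cortex is below the median whole-window value of the muscles (2.75 RPM). The calls passed Fisher's exact test in both (adjusted p = 2.28e-04 and 1.87e-04), in H3K4me3 not without the lowest-scoring peaks, and the filled log2 differences were 0.29 and 0.84. Tyrobp, the signalling adaptor of TREM2, had the same order, with H3K4me3 in 8 cortex libraries and 1 gastrocnemius library and H3K27ac in 8 and 0 (Fisher's exact adjusted p = 0.0149 and 0.00144). The 0 in H3K27ac is cortex library 9, the shallowest.

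Siglech, a sialic acid-binding lectin that signals through TYROBP, had both active marks in 9 of 9 cortex libraries (3.07 ± 0.756 RPM and 2.94 ± 0.729 RPM) and in 0 of 10 muscles. Cd33, a sialic acid receptor linked to risk of Alzheimer's disease, had H3K4me3 in 9 of 9 (3.43 ± 0.843 RPM) and H3K27ac in 5 of 9 cortex libraries (1.26 ± 1.22 RPM). Ly86, a partner of the Toll-like receptor homologue RP105, had H3K4me3 in every cortex library: its values were 2.46, 4.29 and 6.7 RPM, gastrocnemius was at 0 in 10 of 10 libraries, and the calls passed Fisher's exact test (adjusted p = 2.28e-04). Fcrls (5 of 9), Ptprc, which encodes CD45 (7 of 9), and Selplg (5 of 9) had H3K4me3 in part of the cortex libraries and in no muscle. By calls Ptprc passed (Fisher's exact adjusted p = 0.0099, and 0.114 for the other two). With the animal as a block Fcrls in H3K4me3 and Cd33 in H3K27ac were no longer called (edgeR adjusted p = 0.114 and 0.135).

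Inpp5d and Axl were marked in both tissues. Inpp5d (chr1:87620312-87720510, plus strand) encodes the phosphatase SHIP1, which restrains TREM2 signalling, and its promoter is printed above. Its H3K4me3 level was 5.86, 8.74 and 9.99 RPM in cortex and 14.7, 16.9 and 23.1 RPM in gastrocnemius. The groups did not overlap, and the log2 difference was -1.43 (SE 0.12, edgeR adjusted p = 6.88e-10). Its H3K27ac promoter levels overlapped, at 5.64 ± 1.5 RPM and 5.68 ± 1.09 RPM. The call there (log2 difference -0.30 (SE 0.12, edgeR adjusted p = 0.0506)) was lost without a normalization factor (adjusted p = 0.891), without gastrocnemius library 4, and with the animal as a block (0.114). Axl, a receptor tyrosine kinase for GAS6 that vessels and muscle express too, had the highest cortex levels of this role in both active marks, 8.53, 11.2 and 15.8 RPM of H3K4me3 and 5.36, 5.78 and 8.03 RPM of H3K27ac. The H3K4me3 difference was 0.01 (SE 0.14, edgeR adjusted p = 0.973), and the H3K27ac difference -0.37 (SE 0.10, edgeR adjusted p = 0.00413), which was lost without a factor (0.423).

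Clec7a (dectin-1), a gene that plaque-associated microglia raise, had H3K4me3 in 1 of 9 cortex libraries, H3K27me3 in 1 and no H3K27ac call in either tissue. Cd74, the invariant chain of MHC class II, had no H3K4me3 or H3K27me3 promoter call, and H3K27ac in 8 of 9 cortex libraries against 2 of 10. The Cd74 peaks in cortex were wide, with a median of 32.9 kb, and in 6 of the 8 libraries also held the start of Mir5107. The cortex values of Cd74 spread widely, at 0, 2.82 and 8.06 RPM (Fisher's exact adjusted p = 0.0452, which was lost when any of 8 cortex or 8 gastrocnemius libraries was left out).

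The integrin and cytoskeleton genes had few H3K4me3 calls at their starts. Itgam, which encodes CD11b, had H3K4me3 in 6 of 9 cortex libraries at 0, 2.2 and 3.0 RPM and in no muscle (Fisher's exact adjusted p = 0.0377). With the animal as a block the promoter read call was lost (adjusted p just above 0.1). Itgax, which encodes CD11c and rises in plaque-associated microglia, had no H3K4me3 call in either tissue and no H3K27ac call in cortex, while 9 of 10 gastrocnemius libraries had H3K27ac at 0, 2.17 and 3.21 RPM (Fisher's exact adjusted p = 0.00144). Aif1, the gene of the microglial stain IBA1, had the highest H3K27ac mean of the role in cortex, 0, 4.55 and 7.86 RPM against 0, 0.375 and 6.46 RPM in gastrocnemius (6 libraries called in each, edgeR adjusted p = 0.605). Those peaks were wide, with medians of 24.9 and 43.3 kb, and in 6 cortex and 4 gastrocnemius libraries also held starts of other genes, Prrc2a and Bag6 among them.

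The transcription factors differed between tissues in both directions. Sall1 (chr8:89027242-89044162, minus strand), a zinc finger factor that maintains microglial identity, had H3K4me3 at 16.2, 19.7 and 22.6 RPM in cortex and 5.88, 9.07 and 11.6 RPM in gastrocnemius, with means of 19.5 ± 2.0 RPM (SD, n = 9) and 8.61 ± 1.76 RPM (SD, n = 10). The groups did not overlap, and the log2 difference was 0.88 (SE 0.12, edgeR adjusted p = 1.92e-06). H3K27ac was called in 9 of 9 cortex libraries at 6.74, 8.01 and 9.86 RPM and in 0 of 10 muscles, with a filled log2 difference of 1.69 (Fisher's exact adjusted p of the calls = 1.87e-04). H3K27me3 was called in all 19 libraries, at means of 10.2 ± 1.12 RPM and 10.2 ± 2.94 RPM (log2 difference 0.02 (SE 0.05, edgeR adjusted p = 0.88)). The peaks over Sall1 held the start of the uncharacterized gene Gm3134, 2919 bp away, in 9 of 9 cortex and 10 of 10 gastrocnemius libraries in H3K4me3.

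Spi1 (chr2:91082405-91115759, plus strand) encodes PU.1, the factor that myeloid cells need to form. It went the other way. H3K4me3 was called in 3 of 9 cortex libraries (0.806 ± 1.23 RPM, highest 2.76) and in 10 of 10 muscles at 5.22, 6.73 and 7.78 RPM. The groups did not overlap, and the filled log2 difference was -1.66. This is at the outermost start. With a peak at any annotated start counted, the calls no longer passed Fisher's exact test. H3K27ac was called in all 19 libraries, at 5.0 ± 0.708 RPM in cortex and 6.71 ± 1.47 RPM in gastrocnemius (log2 difference -0.69 (SE 0.09, edgeR adjusted p = 3.85e-06)). H3K27me3 was called in 8 of 9 cortex libraries at 0, 4.92 and 6.57 RPM and in no muscle (Fisher's exact adjusted p = 0.00128). Irf8, which acts with PU.1 and whose promoter is printed above, had H3K4me3 at 10.04, 12.6 and 13.9 RPM in cortex and 14.9, 17.1 and 28.9 RPM in gastrocnemius, with no overlap (log2 difference -0.95 (SE 0.12, edgeR adjusted p = 5.34e-07)). Its H3K27ac means were 5.66 ± 1.01 RPM and 6.27 ± 0.721 RPM (log2 difference -0.43 (SE 0.09, edgeR adjusted p = 7.91e-04)), a call lost without a normalization factor (0.222).

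**Figure D4:**
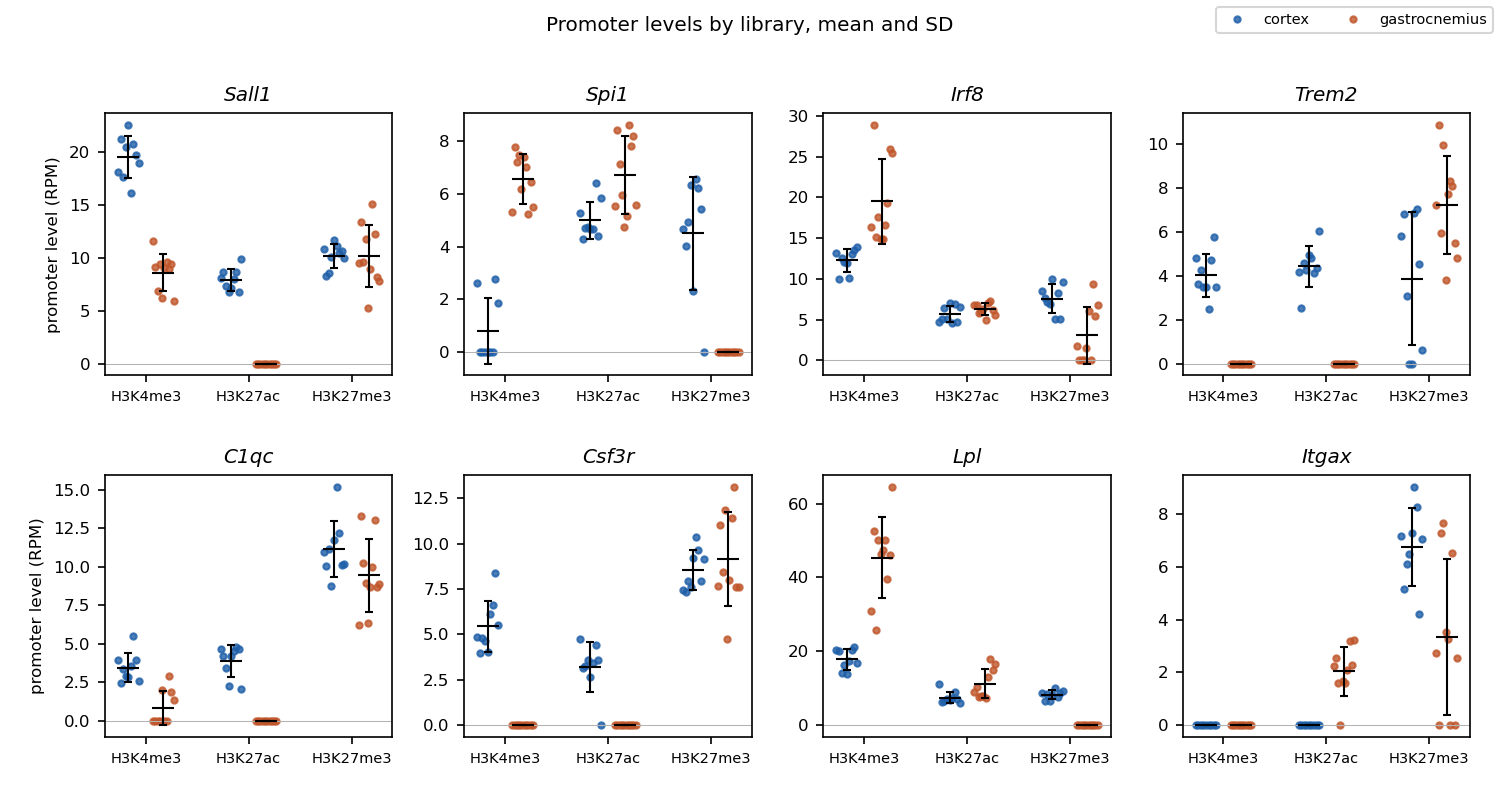
Promoter level (RPM) of Sall1, Spi1, Irf8, Trem2, C1qc, Csf3r, Lpl and Itgax in every library, by mark and tissue, with 1 point per library and a bar at the mean, uncalled libraries at 0. Trem2, C1qc and Csf3r have H3K27ac points above 0 in cortex and none in gastrocnemius, Sall1 has an H3K27me3 mean of 10.2 RPM in both tissues, and Lpl and Irf8 have more H3K4me3 in gastrocnemius.

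C1qa, C1qb and C1qc encode the chains of C1q, which starts the classical complement pathway and tags synapses for removal by microglia. They lie side by side on chr4, with starts within 12.6 kb. H3K27ac was called for each in 9 of 9 cortex libraries and in no muscle, at 2.86 ± 1.17 RPM, 3.77 ± 1.05 RPM and 3.86 ± 1.05 RPM. C1qc was the highest, with values of 2.06, 4.22 and 4.79 RPM and the calls of each passed Fisher's exact test (adjusted p = 1.87e-04). H3K4me3 was called for each in 9 of 9 cortex libraries, at 3.9 ± 0.833 RPM, 3.34 ± 0.83 RPM and 3.44 ± 0.942 RPM, and in 1, 3 and 4 gastrocnemius libraries. The calls passed Fisher's exact test for C1qa and C1qb and not for C1qc (adjusted p = 0.00194, 0.0377 and 0.114). C1qa passed the filter of the read test through cortex alone. C1qb and C1qc did not pass that test at the promoter (edgeR adjusted p = 0.162 and 0.108), but did with the animal as a block (0.00618 and 0.0152). Over the whole gene all 3 were higher in H3K4me3, at 3.61, 1.43 and 3.54 RPM per kb in cortex and 0.129, 0.262 and 0.654 RPM per kb in gastrocnemius (edgeR adjusted p = 3.25e-04, 0.0414 and 0.0262). The limit of the filter holds there too, since 16 of the 22 members higher over the gene passed it through cortex alone and had to differ.

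The same locus carried H3K27me3 in every library of both tissues. The cortex levels were 10.2 ± 1.38 RPM, 11.1 ± 1.83 RPM and 11.1 ± 1.83 RPM and the gastrocnemius levels 10.6 ± 2.48 RPM, 10.2 ± 2.17 RPM and 9.43 ± 2.37 RPM, and no difference passed the test (edgeR adjusted p = 0.459, 0.407 and 0.131). With the animal as a block C1qc passed it (0.0906). A single H3K27me3 peak held the starts of all 3 genes in 9 of 9 cortex and 7 of 10 gastrocnemius libraries, and in some libraries it reached the start of Epha8. A single H3K27ac peak did so in 1 of 9 cortex libraries and a single H3K4me3 peak in none, but H3K27ac peaks at C1qa and at C1qc each held the start of another C1q gene in 6 of 9 cortex libraries. The 3 genes are therefore not independent observations of H3K27me3 or of H3K27ac.

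Among the lysosomal, lipid and secreted genes, Lpl (chr8:68880555-68906932, plus strand), which encodes lipoprotein lipase, is raised in plaque-associated microglia and is made in large amounts by muscle. Its H3K4me3 level was 13.9, 17.3 and 21.1 RPM in cortex and 25.8, 46.9 and 64.5 RPM in gastrocnemius, with no overlap (log2 difference -1.64 (SE 0.13, edgeR adjusted p = 5.92e-10)), which put it at percentile 83 in muscle and 16.96 in cortex. Its H3K27ac level was 7.49 ± 1.62 RPM and 11.3 ± 4.03 RPM (log2 difference -0.80 (SE 0.15, edgeR adjusted p = 1.71e-04)). H3K27me3 was called in 9 of 9 cortex libraries at 6.52, 8.51 and 10.2 RPM and in 0 of 10 muscles, with a filled log2 difference of 0.92 (Fisher's exact adjusted p of the calls = 2.20e-04). Lpl was the only member with H3K27me3 in every cortex library and no muscle. Cd9, a tetraspanin of many cell types, and Olfml3, a secreted glycoprotein, also had less H3K4me3 in cortex (17.4 ± 2.98 RPM against 23.2 ± 3.96 RPM, and 7.05 ± 1.5 RPM against 9.75 ± 1.47 RPM). Their log2 differences were -0.72 (SE 0.11, edgeR adjusted p = 1.12e-05) and -0.76 (SE 0.14, edgeR adjusted p = 8.21e-05), while in H3K27ac neither passed the test (edgeR adjusted p = 0.768 and 0.806).

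Cd68 had the highest H3K27ac level of any member in cortex, 5.92, 10.2 and 11.4 RPM, and 5.11, 6.75 and 11.96 RPM in gastrocnemius (log2 difference -0.03 (SE 0.14, edgeR adjusted p = 0.876)). All of these peaks also held the start of Mpdu1, so the reads cannot be assigned to Cd68 alone. Ctss, the lysosomal protease cathepsin S, had H3K4me3 in 8 of 9 cortex libraries, with lowest, median and highest values of 0, 2.67 and 4.23 RPM, and in no muscle (Fisher's exact adjusted p = 0.00194). Laptm5, a lysosomal protein of blood cells, had both active marks in 9 of 9 cortex libraries (4.23 ± 1.6 RPM and 3.67 ± 0.727 RPM) and in 4 and 3 of 10 muscles. Without cortex library 8, which held its highest H3K4me3 value (7.85), its H3K4me3 difference was no longer called (edgeR adjusted p = 0.104).

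Cst7, which encodes cystatin F and rises in plaque-associated microglia, was marked by H3K27ac alone. H3K27ac was called in 7 of 9 cortex libraries at 0, 2.56 and 3.33 RPM and in no muscle (Fisher's exact adjusted p = 0.00727, lost without the lowest-scoring peaks), and neither methylation mark was called at its start in any library. Ccl6, a chemokine, had H3K4me3 in 1 cortex library, no H3K27ac call, and H3K27me3 in 9 of 9 cortex and 9 of 10 gastrocnemius libraries (5.56 ± 2.8 RPM and 5.05 ± 2.58 RPM).

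H3K27me3 was called in at least 50% of libraries for 22 members in cortex and 22 in gastrocnemius, against 22.2% and 24.6% of all genes. Either tissue passed for 24 members and both for 20, with Lpl and Spi1 in cortex alone and Aif1 and Laptm5 in gastrocnemius alone. The shares of all genes in either or both tissues were not counted. Laptm5 had H3K27me3 in 2 of 9 cortex libraries, at most 2.33 RPM, and in 10 of 10 muscles at 2.77, 7.89 and 11.2 RPM (Fisher's exact adjusted p = 0.00549, filled log2 difference -1.11). Aif1 was called in 5 of 10 muscles, at most 2.87 RPM, and in no cortex library, and its call was lost with the animal as a block (0.127). Ly86 was called in 4 of 10 muscles and in no cortex library, and was also lost with that block (0.160). The calls of Aif1 and Ly86 did not pass Fisher's exact test (adjusted p = 0.118 and 0.245). Tmem119 was higher in cortex by 0.28 (SE 0.10, edgeR adjusted p = 0.0311), with overlapping values of 7.37, 9.54 and 11.7 RPM and 4.54, 8.15 and 12.2 RPM, and lost its call with the block (0.111) and without a factor (0.199). With the animal as a block, 3 members were then higher (C1qc, not called without it, beside Lpl and Spi1) and 1 lower (Laptm5).

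The other members with H3K27me3 in both tissues did not pass the promoter test. Called in all 19 libraries were also Csf3r (8.53 ± 1.11 RPM in cortex and 9.15 ± 2.58 RPM in gastrocnemius) and Siglech (8.19 ± 1.07 RPM and 8.54 ± 2.39 RPM). Called in 9 of 9 cortexes were Cd33 (6.02, 7.96 and 10.3 RPM), Axl (8.12, 8.92 and 11.8 RPM), Selplg (0.922, 5.49 and 7.38 RPM), Itgam (4.87, 7.23 and 10.6 RPM), Itgax (4.2, 7.04 and 9.03 RPM) and Irf8 (5.07, 7.62 and 10.02 RPM), with 8, 9, 8, 6, 7 and 6 of 10 muscles. Their gastrocnemius means were 6.07, 6.77, 5.38, 3.95, 3.35 and 3.08 RPM. Trem2 was called in 7 of 9 cortex libraries (0, 4.54 and 7.06 RPM) and 10 of 10 muscles (3.8, 7.47 and 10.8 RPM, edgeR adjusted p = 0.264). Cx3cr1 was called in 8 and 8 (6.15 ± 2.75 RPM and 5.0 ± 2.92 RPM), Tyrobp in 7 and 7 (5.58 ± 3.48 RPM and 4.85 ± 3.6 RPM) and Cd9 in 8 and 10 (7.35 ± 3.14 RPM and 7.47 ± 2.3 RPM). Csf1r was called in 5 and 9 (3.64 ± 3.48 RPM and 5.66 ± 3.45 RPM) and Fcrls in 6 and 5 (5.22 ± 4.13 RPM and 3.82 ± 4.35 RPM). Ctss was under 50% in both tissues (3 and 2 libraries), and P2ry12, P2ry13, Inpp5d, Ptprc, Cd74, Cst7, Cd68 and Olfml3 had no H3K27me3 promoter call in any library.

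Active and repressive marks were called at the same starts in the same cortex. All 3 marks were called in at least 50% of mice for 16 members in cortex (45.7%, against 9.55% of all genes) and for 4 in gastrocnemius (11.4% against 9.38%). The 16 were Csf1r, Cx3cr1, Tmem119, Csf3r, Trem2, Tyrobp, Cd33, Siglech, Axl, Sall1, Irf8, C1qa, C1qb, C1qc, Lpl and Cd9, and the 4 Tmem119, Axl, Irf8 and Cd9. H3K4me3 with H3K27me3 was called for 18 members in cortex (51.4% against 11.1%) and 5 in gastrocnemius (14.3% against 12.5%), and H3K4me3 with H3K27ac for 24 (68.6% against 58.2%) and 9 (25.7% against 55.9%). These are calls from whole tissue, in which the marks may lie in different cells. Of the 32 members with H3K4me3 or H3K27ac in at least 50% of cortex libraries, 20 also had H3K27me3 in at least 50% and 10 had it in none. Over all genes, with or without an active mark, 22.2% had H3K27me3 in at least 50% of cortex libraries and 66.7% in none. The shares among genes with an active mark were not counted.

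Over the whole gene, from start to end, 22 of 30 members tested were higher in cortex in H3K4me3 and 7 lower, against 34.3% and 34.0% of 16986 genes. For H3K27ac 23 of 31 were higher and 5 lower, against 38.4% and 34.4% of 18832 genes. For H3K27me3 6 of 29 were higher and 5 lower, against 28.6% and 29.5% of 10226 genes. Of those higher, 16 of 22, 14 of 23 and 1 of 6 passed the filter through cortex alone and had to differ, and of those lower 1 of 5 in H3K27ac and 2 of 5 in H3K27me3 passed through gastrocnemius alone. With uncalled genes filled the counts were 5 higher and 21 lower in H3K4me3 and 13 and 9 in H3K27ac. The count of 5 lower in H3K27me3 fell to 3 without cortex library 1, 3, 6 or 9 or gastrocnemius library 1 or 2. With the animal as a block Csf3r lost its H3K27me3 gene call (edgeR adjusted p = 0.117) and Inpp5d gained one (0.0200). Ctss gained one in H3K27ac (0.0731). Levels over genes are given in RPM per kb of gene, with the percent of the gene that peaks covered.

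Sall1 had a broad active domain in cortex. H3K4me3 peaks covered 54.7% of the gene in cortex and 19.2% in gastrocnemius, at 4.36, 5.37 and 6.78 RPM per kb against 0.549, 0.93 and 1.23 RPM per kb (log2 difference 2.54 (SE 0.12, edgeR adjusted p = 9.17e-14)), and H3K27ac peaks covered 92.3% in cortex and none in muscle. Inpp5d, whose promoter H3K27ac levels overlapped, had H3K27ac over 59.3% of its length in cortex and 24.2% in gastrocnemius. The levels over the gene were 1.13, 1.63 and 1.8 RPM per kb and 0.377, 0.524 and 0.617 RPM per kb, with no overlap and a log2 difference of 1.55 (SE 0.12, edgeR adjusted p = 3.66e-10). Cd74 had H3K27ac over 91.2% of the gene in cortex at 1.78, 3.69 and 4.66 RPM per kb, against 36.1% and 0, 0.507 and 1.2 RPM per kb in gastrocnemius (log2 difference 2.55 (SE 0.55, edgeR adjusted p = 4.08e-04)). Aif1, with no H3K4me3 at its outermost start, had H3K4me3 over the gene in 8 of 9 cortex libraries and 1 of 10 muscles (1.14 ± 0.497 RPM per kb in cortex). Its H3K27ac over the gene was 4.01 ± 0.427 RPM per kb and 2.69 ± 0.862 RPM per kb (log2 difference 0.52 (SE 0.17, edgeR adjusted p = 0.0119)).

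Lpl, Axl and Irf8 were lower in cortex over their length in H3K27ac. Lpl had H3K27ac over 15% of the gene in cortex and 96.6% in gastrocnemius, at 0.426, 0.552 and 0.972 RPM per kb and 3.64, 3.93 and 5.06 RPM per kb (log2 difference -2.76 (SE 0.15, edgeR adjusted p = 5.29e-12)), and in H3K4me3 its log2 difference was -1.94 (SE 0.09, edgeR adjusted p = 5.29e-14). Axl, whose H3K4me3 difference at the start did not pass the test, was lower in cortex over the gene, at 0.673 ± 0.146 RPM per kb against 2.04 ± 0.45 RPM per kb (log2 difference -1.64 (SE 0.15, edgeR adjusted p = 4.46e-09)), and its H3K27ac covered 46.98% against 94.5% (log2 difference -1.15 (SE 0.09, edgeR adjusted p = 1.34e-09)). Irf8 had H3K27ac over 59.7% in cortex and 94.8% in gastrocnemius (log2 difference -0.88 (SE 0.08, edgeR adjusted p = 1.04e-08)). H3K27me3 lay over 79.6% of Irf8 in 9 of 9 cortex libraries, at 2.78, 3.38 and 4.34 RPM per kb, and over 5.0% in 4 of 10 muscles, at most 0.746 RPM per kb. Laptm5 had less H3K27me3 over the gene in cortex, 1.39 ± 0.403 RPM per kb against 3.56 ± 0.81 RPM per kb (log2 difference -1.32 (SE 0.17, edgeR adjusted p = 3.11e-06)).

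Other genes of microglial pathways were taken from lists set by name, with Apoe in 2 of them. Here and below each pair of counts is genes higher and lower in cortex among those tested by promoter reads. Genes that passed the filter through 1 tissue alone had to differ here too. Ligands and upstream signals of microglia gave 3 and 3 of 10 in H3K4me3, 1 and 4 of 10 in H3K27ac, and 1 and 1 of 4 in H3K27me3. Cx3cl1, the neuronal ligand of CX3CR1, had H3K27ac of 11.6 ± 1.55 RPM in cortex (9 of 9 called) against 6.42 ± 1.58 in gastrocnemius (10 of 10), and C3 of 0 RPM in cortex (0 of 9 called) against 2.98 ± 0.695 in gastrocnemius (10 of 10). Further TREM2 and phagocyte signalling genes gave 5 and 5 of 14, 5 and 4 of 13, and 0 and 3 of 12. Nckap1l, a regulator of the actin skeleton in blood cells, had H3K4me3 of 3.41 ± 0.53 RPM in cortex (9 of 9 called) against 0 in gastrocnemius (0 of 10). Further plaque-associated genes gave 5 and 5 of 14, 4 and 5 of 14, and 1 and 1 of 10, with Itgb2, the beta chain of CD11b and CD11c integrins, at H3K4me3 of 2.61 ± 1.16 RPM in cortex (8 of 9 called) against 0 in gastrocnemius (0 of 10). Further transcription factors of microglia gave 1 and 8 of 12, 2 and 5 of 11, and 1 and 0 of 4. Mef2c had H3K4me3 of 1.14 ± 1.42 RPM in cortex (4 of 9 called) against 24.4 ± 3.92 in gastrocnemius (10 of 10). This is at its outermost curated start and says nothing of other starts of the gene. Further genes of resting microglia gave 4 and 5 of 14, 0 and 5 of 13, and 3 and 1 of 9, with Bin2 at H3K4me3 of 2.85 ± 0.764 RPM in cortex (9 of 9 called) against 0 in gastrocnemius (0 of 10).

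Markers of other cells that either tissue could hold were counted in the same way. Perivascular and tissue macrophage markers gave 1 and 4 of 5 tested in H3K4me3, 0 and 5 of 5 in H3K27ac, and 2 and 0 of 6 in H3K27me3. Their summed H3K4me3 level was 5.35 to 9.95 RPM in cortex and 17.7 to 32.9 in gastrocnemius. Mrc1, Cd163, Lyve1, Pf4, F13a1, Ms4a7, Folr2 and Cbr2 were at 0 in every cortex library, and Cbr2 had 0 RPM in cortex (0 of 9 called) against 5.42 ± 0.525 in gastrocnemius (10 of 10). Monocyte and granulocyte markers gave none tested in H3K4me3 (summed level at most 0.546 RPM in cortex and 0.613 in gastrocnemius), 0 and 1 of 2 in H3K27ac, and 0 and 1 of 7 in H3K27me3. Ccr2, Ly6c2, S100a8, S100a9, Ngp, Camp and Mpo were at 0 in H3K4me3 in every library of both tissues. Lymphocyte markers had no H3K4me3 call in any library, and gave 0 and 0 of 2 in H3K27ac and 2 and 1 of 8 in H3K27me3. Endothelial markers gave 0 and 9 of 10, 0 and 9 of 9, and 2 and 0 of 7. Neuron markers gave 10 and 0 of 10, 10 and 0 of 10, and 1 and 2 of 9. Astrocyte markers gave 4 and 4 of 9, 5 and 2 of 9, and 2 and 0 of 7. Oligodendrocyte markers gave 9 and 0 of 10, 8 and 0 of 10, and 1 and 4 of 9. Skeletal muscle markers gave 1 and 8 of 10, 0 and 10 of 10, and 7 and 0 of 8. The part of these other cells in the marks of the 35 members was not tested.

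Reads in H3K4me3 peaks were fewer in cortex, with medians of 10.8 M in cortex and 14.3 M in gastrocnemius. The names of 2 cortex and 4 gastrocnemius files of each mark carry a further code of S and digits. It is called the run number here, but no label says what it stands for. In the libraries without it, 20 members were higher and 6 lower by H3K4me3 promoter reads, 17 and 6 by H3K27ac and 5 and 2 by H3K27me3. There the calls of Ptprc and Itgam (H3K4me3) and of Cd33 and Cd74 (H3K27ac) no longer passed Fisher's exact test. In the libraries with the run number, a comparison added after the data were seen, the counts by promoter reads were 14 and 5, 8 and 1, and 1 and 0. With the run number as a covariate the counts were 20 and 6, 18 and 6, and 4 and 3. Without the 2 libraries that stood apart in depth they were 17 and 6 in H3K27ac and 4 and 3 in H3K27me3. The part of depth and of this code in the calls was not tested further.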

How the data were processed

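Chromatin was immunoprecipitated from 57 snap-frozen samples (3 marks in 9 cortexes and 10 gastrocnemius muscles). The authors aligned paired-end reads to mm10 with BWA, removed duplicates and reads of low mapping quality with SAMtools, and ran the peak caller epic2 on each library by itself (fragment and window 200 bp, gaps of 2, or 3 for H3K27me3, FDR < 0.05). No source used here gives the version of epic2. The authors deposited a raw count of fragments per peak. They also deposited a score per peak, used here to rank peaks only. No column of another sample was left out.

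The count of a peak was shared over its length by overlap, summed within 1 kb of the TSS or over the gene, rounded, and set to 0 where no peak was called. Genes were RefSeq genes of the same assembly with their outermost curated start. Tissues were compared per mark with the quasi-likelihood test of edgeR 4.0.16 (R 4.3.3, TMM factors, library size of reads in autosomal peaks) and with Fisher's exact test of calls, each with Benjamini-Hochberg adjustment over all autosomal genes tested. Printed RPM levels carry no TMM factor, so a log2 difference is not the ratio of the printed means. The filled difference is the same fit with an uncalled library at its lowest called read density over the whole window, which can exceed the level of a called peak that covers part of it. Python 3.11.15 with NumPy 2.4.6, SciPy 1.17.1 and pandas 2.3.3 was used for the rest, and the code was tested on simulated data. Libraries are separate animals within a tissue, and sex is not a term because the labels do not give it.

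Replicate numbers name the libraries. By the animal codes in the file names, 9 mice gave both tissues, and the number in the titles is that of the same animal for 4 of them. The deviations of libraries of the same animal correlated at -0.0953 to 0.0474 in H3K4me3, -0.0424 to 0.0724 in H3K27ac and -0.0463 to 0.0980 in H3K27me3. The members and the other gene lists were chosen with earlier results of these data known. Every member is accounted for. Those given by lowest, median and highest value are, per role and active mark, the member with the highest cortex mean and the called member with the largest fitted log2 difference, and every member with H3K27me3 in at least 50% of the libraries of a tissue. At most 2 genes of each other list are named, by the largest difference, and others are named where a count of 5 or fewer or a single feature is described, after their values were seen. Alternatives were DESeq2 1.42.0 and its size factors, limma 3.58.1 on log2(RPM + 1), no factor, other filters, windows of 2.5 kb, any annotated start, 50% of the window covered, no peaks of the lowest 25% of scores, equally many top peaks, the run number, only libraries without it, only libraries with it (added after the data were seen), a replicate block and each library left out.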

Additional observations from a re-analysis of the deposited data

Results flagged for a closer look

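Each promoter level of a member with calls, and each number of members called per library, was checked for a library far from the rest of its group, in 134 groups of 9 or 10 libraries. In 16 of them the gap of the highest or lowest library to its nearest neighbour was too large a part of the range (Dixon's test), where chance alone flags about 1 in 20.

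In H3K4me3 the high libraries were cortex 5 for Axl (15.8 RPM, next 12.1), cortex 7 for C1qc (5.47, next 3.94), and cortex 8 for Csf1r (7.37, next 4.56) and Laptm5 (7.85, next 5.12). Cortex 8 is the deepest H3K4me3 cortex library, at 18.99 M reads in peaks. Uncalled in 1 library alone were Cd68 in gastrocnemius 7 (0, next 8.08) and Tyrobp in cortex 2 (0, next 2.74), the latter the shallowest H3K4me3 cortex library at 9.50 M reads.

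In H3K27ac, cortex 5 was high for Axl (8.03, next 6.49), as in H3K4me3, and low for C1qb (1.25, next 3.36). Csf3r, Ly86, Selplg and Tyrobp were at 0 in cortex 9 alone, with next values of 2.68, 1.89, 2.34 and 2.41 RPM. That library had 21 members called, where the next lowest had 27, and 3.94 M reads in peaks, the fewest of the mark. Itgax was at 0 in gastrocnemius 4 alone (next 1.61) and Tmem119 in gastrocnemius 2 alone (next 2.31). In H3K27me3, Cd9 was at 0 in cortex 3 alone (next 6.06). The part of depth in these values was not tested.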

How the results depend on the processing

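Of 66 single calls of a member in a mark, 27 kept direction and threshold under every alternative. The 66 are all promoter read calls and a chosen part of the whole-gene calls. The whole-gene calls given for Tmem119, C1qa, C1qb and C1qc are not among them. Over these calls and the alternatives other than leaving out a library, 819 values kept both, 64 fell short of the threshold and 9 changed sign. All 9 came in the fit that fills uncalled libraries with their lowest called density over the whole window, which can exceed a called level: Aif1 0.27 in H3K27me3 promoter reads and -0.050 in H3K4me3 gene reads, Cd33 -0.094 in H3K27ac, and in H3K4me3 Ctss -0.076, Fcrls -0.24, Itgam -0.39, Ptprc -0.16, Selplg -0.11 and Siglech -0.096. These signs rest on the filling together with the normalization factor and give no direction. For Siglech the cortex mean (3.07 RPM) exceeds the highest whole-window value of the muscles (2.95 RPM). The filling left 8 members higher in H3K4me3 promoter reads in place of 18, and gave 8 in H3K27me3 in place of 3. Over genes, where it fills whole uncalled genes by construction, it gave 5 higher and 21 lower in H3K4me3 (22 and 7 as reported) and 13 and 9 in H3K27ac (23 and 5). Testing only genes with a peak in every library leaves out members uncalled in 1 tissue by construction: it gave 1, 0 and 1 higher at promoters in H3K4me3, H3K27ac and H3K27me3, 0 lower in H3K27me3, and 1, 3 and 3 higher over genes. Without the lowest-scoring peaks 11 members were higher in H3K4me3 at promoters and 11 over genes, and 3 (14 as reported) had more calls in cortex, or 8 with 50% of the window covered. The 1 H3K4me3 call for gastrocnemius became 0 with 50% covered or any annotated start. The members lower in H3K27ac promoter reads fell from 6 to 3 without a factor and to 3 with limma. In H3K27me3, limma and the libraries without a run number each gave 5 higher at promoters, DESeq2 and its size factors in edgeR each gave 8 lower over genes (5 as reported), the libraries without a run number 3, and windows of 2.5 kb or equally many top peaks 2 calls for gastrocnemius in place of 1. In the 2 cortex and 4 gastrocnemius libraries with a run number, fewer samples by construction, 8 members were higher and 1 lower in H3K27ac promoter reads and 1 and 0 in H3K27me3, and over genes 3 were lower in H3K4me3, 3 in H3K27ac and 3 in H3K27me3, where 1 was higher. The cause of these changes was otherwise not tested.

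With each library left out in turn, promoter counts stayed at 17 to 19 higher and 6 to 7 lower in H3K4me3, 17 to 18 and 5 to 6 in H3K27ac, and 3 to 4 and 3 in H3K27me3. Over genes they were 22 and 7 to 8, 22 to 24 and 5, and 5 to 7 and 3 to 7. More calls in cortex were found for 12 to 16, 16 to 18 and 2 members, and more in gastrocnemius for 0 to 1, 1 and 1. With the replicate block (animal code or title number), the pairing gave 18 members higher and 6 lower in H3K4me3 promoter reads, 17 and 5 in H3K27ac, and in H3K27me3 3 or 4 higher and 1 lower, where 3 were lower as reported. With the animal code it took no promoter call from a named member other than Cd33 and Inpp5d (H3K27ac), Fcrls and Itgam (H3K4me3), and Aif1, Ly86 and Tmem119 (H3K27me3), and under both blocks C1qb and C1qc gained a call in H3K4me3 and C1qc in H3K27me3 promoter reads. Depth limits what a missing call shows, since reads outside called peaks are not analysed here.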
